A study of Bos grunniens x Bos taurus and Bos grunniens with 6 samples.

Results

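The genes that pack the sperm nucleus were compared between the testis of cattle-yak and of yak. The set was chosen by gene symbol and held 8 of the 18918 genes in the deposited table, each on 1 row. It comprised the transition proteins TNP1 and TNP2, the protamine PRM2, the nuclear protein HMGB4 and 4 genes linked to the removal of histones, BRDT, CHD5, PHF7 and RNF8. Testis RNA came from 3 F1 hybrids sired by Jersey cattle out of Gannan yak dams, the cattle-yaks C1, C2 and C3, and from 3 Gannan yaks, Y1, Y2 and Y3. All were male and 4 years old, with 1 library per animal. According to the study's methods, the hybrids were castrated and the yaks were euthanized, and the groups came from different counties. These conditions cannot be told apart from the genotype. The unit is FPKM, fragments scaled by the length of the gene model and the depth of the library, which the authors deposited without scaling between libraries.

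After meiosis, round spermatids elongate and most of their histones are taken out of the chromatin. Histones are first loosened by acetylation and ubiquitination, then replaced by transition proteins, and these are in turn replaced by protamines, small arginine-rich proteins that condense the DNA of the sperm head. Transcription of the transition protein and protamine genes begins in round spermatids, and their mRNAs are stored and translated later, in elongating spermatids. Male cattle-yaks of the F1 generation are sterile, and the comparison addresses which steps of sperm formation are still represented in their testis RNA.

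The values rested on 11175100 to 11834987 fragments per library in cattle-yak and 12991641 to 13136129 in yak, recovered from the steps of the FPKM values. The labelled tissue showed the somatic markers of a testis in each library, with Sertoli cell genes summing to 2618 to 2805 FPKM in cattle-yak and 517 to 594 in yak. All 10 Sertoli, 6 Leydig and 6 myoid markers tested were called higher in cattle-yak on the deposited scale, and 9, 5 and 6 of them with median-of-ratios scaling. None was called higher once the libraries were centred on the Sertoli list, which by construction removes the mean difference of the Sertoli markers, and the Leydig and myoid medians were then −0.33 and −0.30. In RNA of a whole tissue, fewer cells of a type and less RNA per cell cannot be told apart. From tissue sections, the paper reported cattle-yak tubules without round spermatids or sperm, and with fewer spermatogonia and spermatocytes. How far the RNA levels go with these cell numbers was not tested. Across the 15042 genes tested, the median was 0.51 towards cattle-yak on the log2 scale, and 0.01 after median-of-ratios scaling, so falls on the deposited scale are smaller, and rises larger, than those relative to the median gene.

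Of the 8 genes, 7 were called lower in cattle-yak, with log2 (foldchange) values from −2.66 to −8.27, and none higher. Lower calls made up 20.8% of all tested genes and higher calls 33.4%, or 54.2% in either direction. A gene was called at an adjusted p under 0.05 together with a log2 (foldchange) beyond 1 in limma on log2 (FPKM + 1). The eighth gene, RNF8, was below the yak range in each hybrid without reaching the fold threshold. The hybrids lay below the yaks for each of the 8 genes, as they did for 30.2% of all tested genes, against 53.9% with the hybrids above the yaks. The order of the falls was TNP1, PRM2, TNP2, HMGB4, CHD5, PHF7, BRDT and RNF8. The summed level of the 8 genes was 277, 141 and 72.6 FPKM in C1, C2 and C3, against 11690.1, 10501.8 and 12228.5 in Y1, Y2 and Y3. This sum was 1.76% to 1.999% of all FPKM of a yak library and 0.0120% to 0.0467% of that of a cattle-yak library (exact permutation test, two-sided, p = 0.1 for the summed level, the smallest p that 3 animals against 3 allow).

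**Figure D1:**
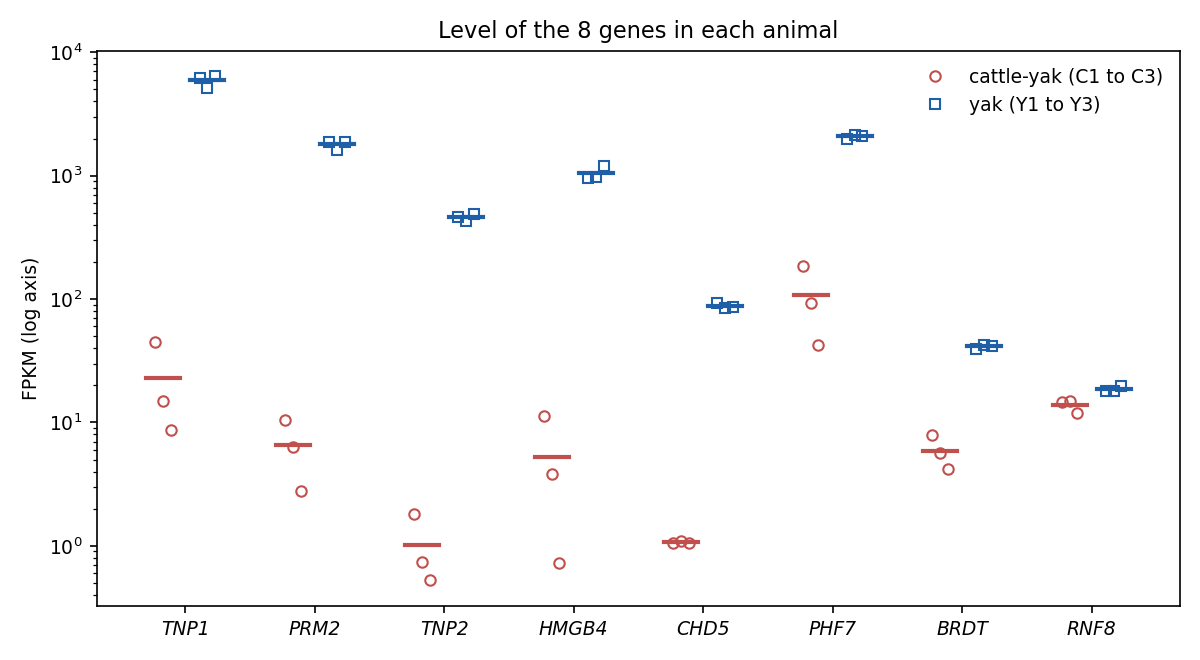
FPKM of each of the 8 genes (log axis) in the 3 cattle-yak and 3 yak libraries, with points for animals and short lines for group means. The cattle-yak points lie below the yak points for every gene, far below for TNP1, PRM2, TNP2 and HMGB4, and close to them for RNF8.

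TNP1 (ENSBGRG00000002189) encodes the smaller of the transition proteins, which holds the DNA between the loss of histones and the arrival of protamines. It had 6239, 5175 and 6427 FPKM in Y1, Y2 and Y3, where it ranked 2, 3 and 1 among all genes. In C1, C2 and C3 it had 44.8, 14.9 and 8.72 FPKM. The yak mean of 5947 ± 675 FPKM was 261-fold the cattle-yak mean of 22.8 ± 19.3 (SD, n = 3 each), and limma gave a log2 (foldchange) of −8.27 ± 0.48 (standard error) at an adjusted p of 1.5e-06. No tested gene had a larger fall on this scale. Without C1 the value was −8.89 and without C3 it was −7.78. The cattle-yak values rested on 89, 28 and 17 fragments, with exact Poisson 95% intervals of 71.5 to 110, 18.6 to 40.5 and 9.90 to 27.2. These intervals cover counting error only, and the exact interval of any count above 0 excludes 0 by construction. The interval of C1 does not overlap those of C2 and C3.

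TNP2 (ENSBGRG00000026521), the larger transition protein, a zinc-binding protein of the condensing nucleus, had 459.6, 431 and 493 FPKM in Y1, Y2 and Y3. In C1, C2 and C3 the level was 1.81, 0.74 and 0.52 FPKM. The fold between the group means, 450.4, was the largest of the 8 genes, with −7.89 ± 0.21 (standard error) on the log2 scale at a limma adjusted p of 8.6e-08. On the log2 (FPKM + 1) scale the fall of so low a gene is understated, and with a pseudocount of 0.01 it was −9.001, past that of TNP1 at −8.36. A level per length depends on the gene model, which was 168 bases for TNP1, little more than the 150 bases of a read, and 2796 bases for TNP2. In fragments TNP2 was the more abundant in each yak library, with 16881, 15810 and 17910 against 13769, 11393 and 14028 for TNP1, and the cattle-yak libraries held 60, 23 and 17.

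PRM2 (ENSBGRG00000026517) encodes a protamine that is made as a precursor and processed in the spermatid nucleus. It had 1889.9, 1627 and 1866 FPKM in Y1, Y2 and Y3 and ranked 12 to 21 among all genes there. The cattle-yak levels were 10.5, 6.34 and 2.80 FPKM in C1, C2 and C3, from 42, 24 and 11 fragments. The means differed 275-fold, and limma gave −8.03 ± 0.34 (log2, standard error) at an adjusted p of 3.9e-07. The protamine gene PRM1 was not analysed here.

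HMGB4 (ENSBGRG00000009335), a testis-enriched protein of the high mobility group box family, binds DNA without the acidic tail of its relatives. Its level was 962, 976 and 1197 FPKM in Y1, Y2 and Y3. In cattle-yak it was 11.3 FPKM in C1, 3.79 in C2 and 0.73 in C3, a 15.5-fold range within the group that was the widest of the 8 genes. C3 held 5 fragments of HMGB4 (exact Poisson 95% interval 1.62 to 11.7) and C1 held 79. The log2 (foldchange) was −7.80 ± 0.59 (standard error, limma adjusted p = 5.7e-06), moving to −8.50 without C1 and to −7.08 without C3.

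CHD5 (ENSBGRG00000018244) encodes a chromodomain helicase that remodels nucleosomes in spermatids. It had 92.8, 84.5 and 86.03 FPKM in Y1, Y2 and Y3. In C1, C2 and C3 it had 1.05, 1.10 and 1.04 FPKM, from 77, 76 and 75 fragments. The hybrids thus hardly differed from each other for CHD5, with a 1.05-fold range, while the lowest yak stood 76.9-fold above the highest of them. In limma the change was −5.42 ± 0.11 on the log2 scale (standard error), with an adjusted p of 5.7e-08, the smallest of the 8 genes. Since the remaining level was close to the pseudocount, this value was −6.35 with a pseudocount of 0.01, and the fold between the means was 82.4.

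PHF7 (ENSBGRG00000008600), a ubiquitin ligase with a PHD finger that reads methylated histone H3 and marks histones for removal in early spermatids, was the most abundant of the 4 removal factors in both groups. Its level was 1989, 2148 and 2098 FPKM in Y1, Y2 and Y3, where it ranked 8 to 10 among all genes. C1 kept 185 FPKM, C2 93.4 and C3 42.7, from 2529, 1202 and 571 fragments. The means differed 19.4-fold, with a log2 (foldchange) of −4.50 ± 0.44 (standard error, limma adjusted p = 2.3e-05). PHF7 was the most abundant of the 8 genes in each hybrid.

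BRDT (ENSBGRG00000001903) encodes the testis member of the BET bromodomain proteins, which binds acetylated histones and is present from spermatocytes onwards. It had 39.6, 42.6 and 42.0 FPKM in Y1, Y2 and Y3. The hybrids had 7.87, 5.65 and 4.16 FPKM in C1, C2 and C3, from 548, 371 and 284 fragments. The means differed 7.02-fold. At −2.66 ± 0.19 (log2, standard error, limma adjusted p = 4.3e-06), BRDT had the smallest of the 7 falls.

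RNF8 (ENSBGRG00000008824) encodes a ubiquitin ligase of the DNA damage response in many cell types that also ubiquitinates histones in germ cells. Its level was 17.9, 18.1 and 19.6 FPKM in Y1, Y2 and Y3, and 14.6, 15.0 and 11.9 in C1, C2 and C3. The groups did not overlap, but the lowest yak was only 1.19-fold above the highest hybrid. The log2 (foldchange) was −0.40 (95% interval −0.69 to −0.11, limma adjusted p = 0.016), short of the fold threshold. The limma adjusted p was 0.056 without C3, 0.053 without Y3 and 0.23 with the libraries centred on the spermatocyte markers, the highest of all alternatives. With median-of-ratios scaling the log2 (foldchange) was −0.98, just inside the threshold, and with voom on the recovered fragments under that scaling it was −1.05 and the gene was called.

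**Figure D2:**
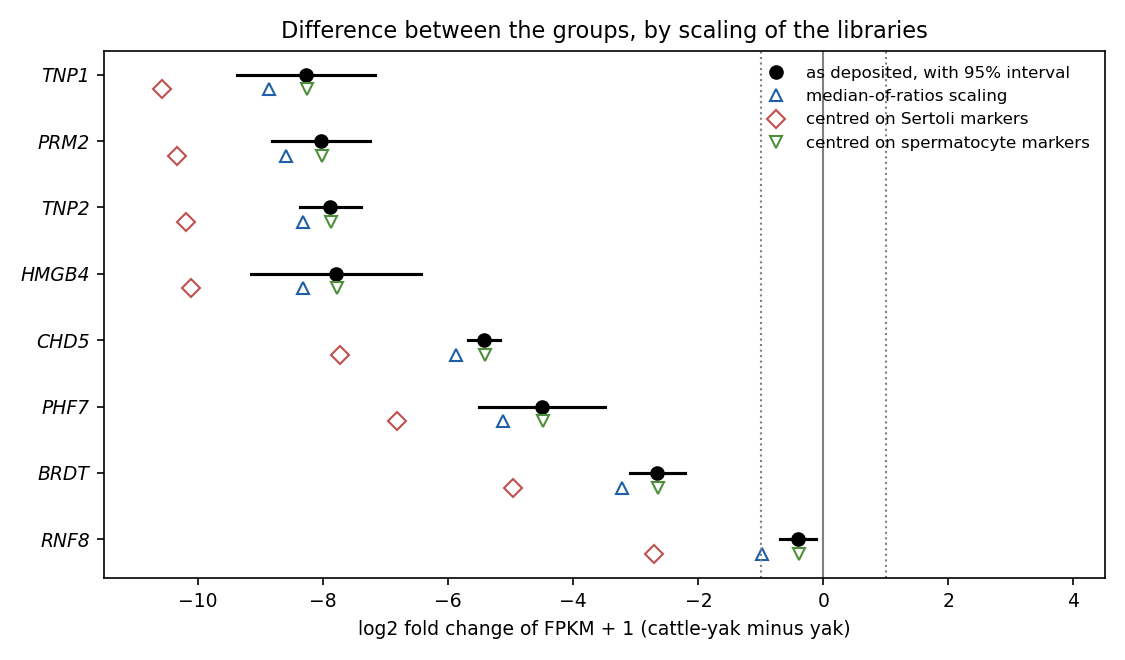
Log2 (foldchange) of FPKM + 1, cattle-yak minus yak, for the 8 genes. Black points with lines give the deposited values with 95% intervals, open symbols give 3 other scalings of the libraries, and dotted lines mark the fold threshold. Every symbol lies below 0, and RNF8 is the gene that changes its side of −1.

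Neighbours in the order of the falls were compared within libraries, as the difference of their log2 (FPKM + 1). The order was taken from these same values, so the sign of each mean difference was fixed in advance, and the order depends on the pseudocount. From TNP1 over PRM2 and TNP2 to HMGB4, each of the 3 neighbouring differences, 0.23, 0.15 and 0.09 in size, overlapped between the groups (exact permutation test, two-sided, p = 0.4 to 0.9, adjusted p = 0.56 to 0.90 over 7 pairs). Pairs that were not neighbours were not compared in this way. The FPKM ratio of TNP1 to TNP2, given below, did not overlap between the groups (exact permutation test, two-sided, p = 0.1). From HMGB4 to CHD5, from PHF7 to BRDT and from BRDT to RNF8 the differences were −2.38, −1.85 and −2.25, and the groups did not overlap (exact permutation test, p = 0.1 each, the smallest possible, adjusted p = 0.23). CHD5 and PHF7 differed by −0.92, and their differences overlapped (exact permutation test, p = 0.3, adjusted p = 0.53). With 3 animals per group none of these pairs can pass 0.05.

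The shares of 7 of the 8 genes in their sum did not overlap between the groups. The sum itself was 70.1-fold higher in yak between the means. A gene with a much smaller fall therefore gains share by construction, as PHF7 and RNF8 did while lower in FPKM in the hybrids. Likewise a gene with a larger fall, such as TNP1, loses share. The count of 7 thus restates the unequal falls, and was not set against a share over all genes. TNP1 held 53.4%, 49.3% and 52.6% of the summed FPKM of the 8 genes in Y1, Y2 and Y3, but 16.1%, 10.6% and 12.01% in C1, C2 and C3. PHF7 took the first place in the hybrids, with 66.9%, 66.3% and 58.8%, against 17.02%, 20.5% and 17.2% in the yaks. RNF8 made up 5.27%, 10.7% and 16.4% of the sum in C1, C2 and C3 and 0.153% to 0.173% in yak. The groups did not overlap for any of these 3 shares (exact permutation test, two-sided, p = 0.1, the smallest possible). The share of CHD5 overlapped, at 0.866% ± 0.535 for the hybrids and 0.767% ± 0.0555 for the yaks (SD, n = 3 each, exact permutation test, p = 0.9).

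**Figure D3:**
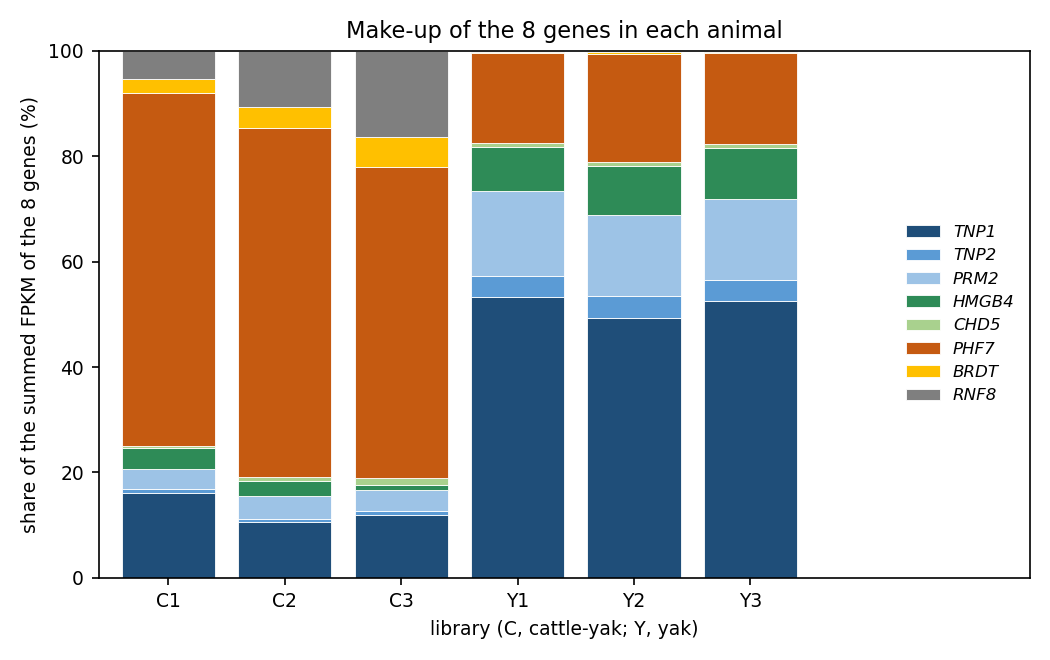
Share of the summed FPKM of the 8 genes (%, from 0 to 100) held by each gene in each library. TNP1 fills the largest part of each yak bar, followed by PHF7 (17.02% to 20.5%) and PRM2 (15.3% to 16.2%). PHF7 fills 58.8% to 66.9% of the cattle-yak bars.

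Ratios between genes of one library do not depend on its scaling. TNP1 stood at 3.18 to 3.44 times PRM2 in yak and at 4.28, 2.35 and 3.12 times in C1, C2 and C3, which overlap (exact permutation test, two-sided, p = 0.9). The ratio of TNP1 to TNP2 was 11.99 to 13.6 in yak and 24.7, 20.3 and 16.6 in C1, C2 and C3, with no overlap (exact p = 0.1). TNP1 exceeded BRDT 122-fold to 157-fold in yak and 2.10-fold to 5.68-fold in cattle-yak. PHF7 stood at 49.9 to 50.5 times BRDT in the 3 yaks and at 23.6, 16.5 and 10.3 times in C1, C2 and C3 (exact p = 0.1 for each). CHD5 stood at 1.98 to 2.34 times BRDT in yak and at 0.133, 0.195 and 0.251 times in C1, C2 and C3, with no overlap (exact p = 0.1). TNP1 to HMGB4 overlapped, at 5.30 to 6.49 in yak and at 3.96, 3.94 and 11.96 in C1, C2 and C3 (exact p = 1.0). In all 8 such ratios were computed.

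The hybrids were not alike for most of these genes. C1 had the highest and C3 the lowest level for TNP1, TNP2, PRM2, HMGB4, PHF7 and BRDT, that is for 6 of the 7 genes called lower, as for 45.4% of all genes called lower and 19.2% of all tested genes. C1 alone was the highest hybrid for 63.9% of the genes called lower. C1 stood 5.13-fold above C3 for TNP1, 3.46-fold for TNP2, 3.74-fold for PRM2, 4.34-fold for PHF7 and 1.89-fold for BRDT, where the median was 1.37-fold over the genes called lower with C3 above 0, leaving out 281 with C3 at 0. CHD5 and RNF8 were the exceptions, with C2 highest for both. In yak the highest animal stood at most 1.24-fold above the lowest for any of the 8 genes.

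Of the germ cell marker lists, those of spermatids had the same order of the hybrids as most of these genes. The summed level of 7 round spermatid markers was 66.1, 38.1 and 22.9 FPKM in C1, C2 and C3 and 1068 to 1149 in yak. For 7 elongating spermatid markers it was 144, 85.6 and 54.3 FPKM against 3892 to 4720. ODF2, picked with its values known, alone gave 98.9, 61.7 and 39.2 FPKM of this sum in C1, C2 and C3. That was more than the other markers of the list together, whereas in yak ODF2 gave 819 to 868 FPKM. Both spermatid lists stood highest in C1 and lowest in C3. The 8 spermatocyte markers did not follow this, with 330, 196 and 318 FPKM in C1, C2 and C3 against 233 to 264 in yak, where C2 stood out as the lowest of all animals (exact permutation test between the groups, two-sided, p = 0.4). The summed spermatogonia markers went the other way, with C2 and C3 at 1.09 and 1.26 times C1. Sertoli markers differed little between the hybrids, with C2 and C3 at 1.03 and 1.07 times C1. The part of these cell types in the differences of the 8 genes was not tested.

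All 7 round spermatid and all 7 elongating spermatid markers tested were called lower, with median log2 (foldchange) values of −5.05 and −6.65, beside −6.61 for the 8 genes. TSSK2, a serine kinase of spermatids and the most abundant round spermatid marker, had 349, 341 and 384 FPKM in Y1, Y2 and Y3 and 4.47, 2.41 and 0.56 in C1, C2 and C3. The most abundant elongating spermatid marker, GAPDHS, the sperm form of a glycolytic enzyme, fell 99.2-fold between the means. SPACA3, a sperm acrosome gene picked after its values were seen, was the one germ cell marker listed at 0 in a hybrid, in C2, and had 52.3 to 72.05 FPKM in yak. Of the 8 spermatocyte markers, none was called lower and SYCP3, an axis protein of meiotic chromosomes, was called higher (1.10), with a list median of −0.14. The other markers of this list were SYCP1, SYCP2, DMC1, SPO11, HORMAD1, MEIOB and MLH3. Other genes of these cells can differ, since the paper reported the spermatocyte markers CCNA1 and PIWIL1 as lower in cattle-yak. It also reported meiosis genes such as TEX15, STAG3 and MEIOB as lower. Here MEIOB stood at −0.66 (limma adjusted p = 0.063). The measures are unlike, since the paper used DESeq on read counts and the value here is from FPKM without scaling between libraries. The spermatocyte list turned with the scaling, to 2 lower and none higher with median-of-ratios and 8 lower with Sertoli centring. Of 7 spermatogonia markers 6 were higher, while their median moved from 1.83 to −0.48 with Sertoli centring. The most abundant of them was DMRT1, a transcription factor of spermatogonia and Sertoli cells, at 482 ± 71.6 FPKM in the hybrids against 125 ± 27.1 in the yaks (SD, n = 3 each).

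**Figure D4:**
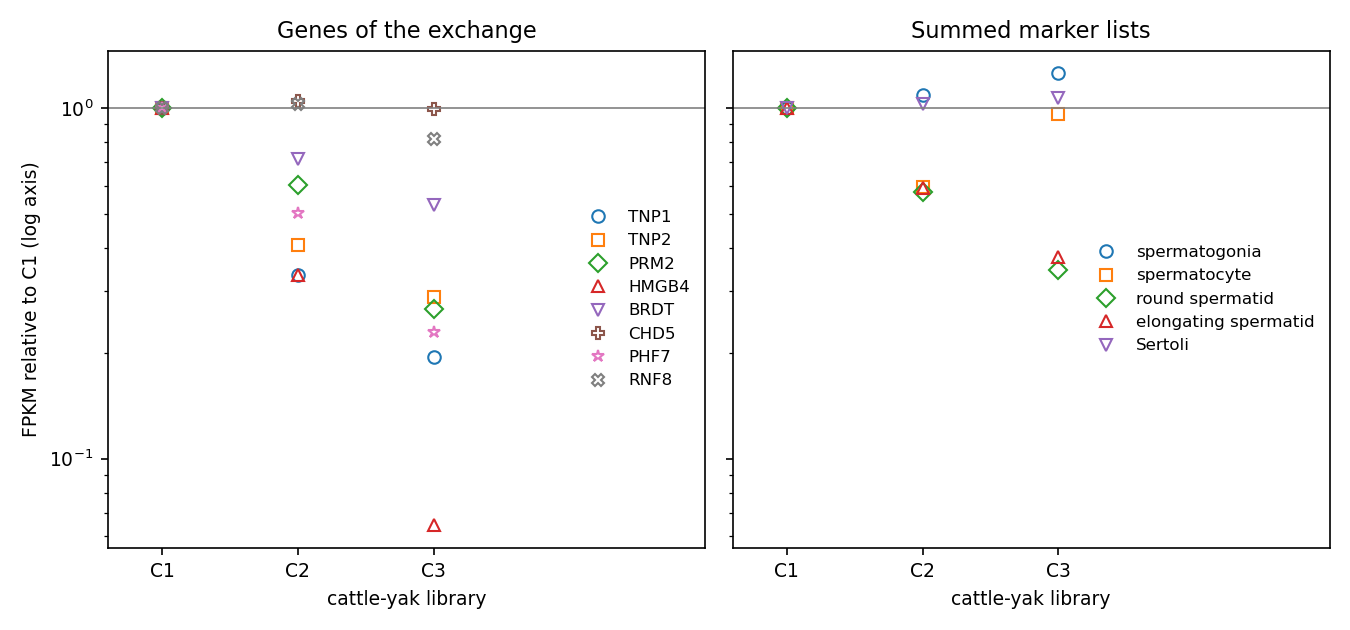
Level of each of the 8 genes (left) and of summed marker lists (right) in C1, C2 and C3, relative to C1 (log axis). HMGB4 drops furthest in C3, CHD5 stays near 1 in all 3 hybrids, and the spermatid lists drop in C2 and C3 while the spermatocyte list is lowest in C2. The spermatogonia list is highest in C3.

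Beyond the 8 genes, 72 symbols of the same process and of related genes were listed by role. Of these 57 were tested, 22 (38.6%) were called lower and 11 (19.3%) higher, beside 20.8% and 33.4% of all tested genes. The direction of the calls depended on the scaling, since median-of-ratios scaling gave 24 lower and 3 higher, and centring on the Sertoli markers 49 lower and none higher. Their median log2 (foldchange) was −0.11.

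Among the histone variants of spermatids, 3 of 5 tested genes were called lower and none higher. H2AX, a histone that marks DNA breaks and was picked with its values known, had 17.4 to 22.9 FPKM in cattle-yak and 6.71 to 13.5 in yak, a log2 (foldchange) of 0.94 (limma adjusted p = 0.0048) just short of the threshold, and the list held 1 higher call with pseudocounts of 0.1 and 0.01, with voom on the fragments, without C2 and without Y3. H1-9, deposited under its older symbol Hils1, a linker histone of elongating spermatids, had 808, 756 and 903 FPKM in Y1, Y2 and Y3 and 6.95, 2.32 and 1.68 in C1, C2 and C3, a change of −7.63 on the log2 scale (limma adjusted p = 5.4e-07). Of the chaperones, kinases and the phosphatase of the exchange, all 6 fell, with log2 (foldchange) values from −1.49 for PPP1CC to −7.58. TSSK6, a serine kinase of spermatids, fell most, from 641 ± 59.6 FPKM in yak to 2.61 ± 1.84 (SD, n = 3 each, limma adjusted p = 2.8e-07). PPP1CC, a phosphatase with a testis form, SRPK1, which phosphorylates protamine, and HSPA2, a chaperone of transition proteins, were picked with their values known, and the latter pair fell by 2.45 and 1.94.

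The regulators of the transition protein and protamine genes were split, with 8 of 12 lower and 2 higher. FHL5, the testis coactivator of CREM also known as ACT, fell most, from 68.5 ± 12.9 FPKM to 0.48 ± 0.56 (SD, n = 3 each), with −5.60 on the log2 scale (limma adjusted p = 5.5e-07). CREM, the activator that switches on TNP1, TNP2 and protamine transcription, and YBX2, which binds and stores their mRNAs, were also picked with their values known. The more abundant of the rows named CREM had 255, 255 and 265 FPKM in Y1, Y2 and Y3 and 23.8, 15.95 and 6.60 in C1, C2 and C3, and a further row of that symbol, uncertain because the counting could split reads between them, fell by 3.07. YBX2 fell by 4.32. TAF7L, a germ cell subunit related to the general transcription factor TFIID, rose from 27.9 ± 2.63 to 131 ± 17.9 FPKM (log2 (foldchange) 2.19, limma adjusted p = 1.3e-06), but stood at −0.12 when the libraries were centred on the Sertoli markers.

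Among the lists of enzymes that also act in other cell types, those of histone acetylation and of ubiquitination had members on both sides. Of 10 genes of histone acetylation and its readers, 2 fell and 2 rose. KAT8, the acetyltransferase of histone H4 lysine 16, fell from 328 ± 14.7 to 57.04 ± 8.10 FPKM (SD, n = 3 each, limma adjusted p = 5.1e-07), and MSL3, a subunit of a complex with KAT8, rose by 1.52 in its log2 value, but stood at −0.79 after Sertoli centring. Of 9 genes of histone ubiquitination and the proteasome, 3 fell and 2 rose. The more abundant row of UBE2N, a ubiquitin-conjugating enzyme that works with RNF8, fell from 883 ± 242 to 224 ± 15.04 FPKM, a log2 (foldchange) of −1.94. A further row of that symbol went the other way at a low level, with means of 0.57 FPKM in yak and 1.54 in cattle-yak. Its log2 (foldchange) was 0.77 (limma adjusted p = 0.051), and it was not called. HUWE1, a ubiquitin ligase with histones among its targets, had a log2 (foldchange) of 1.72, and of −0.59 after Sertoli centring. Of the 5 genes of DNA breaks and poly(ADP-ribose) none was called lower, while 4 were after Sertoli centring. PARP1, an enzyme that adds poly(ADP-ribose) at DNA breaks, rose from 38.2 ± 3.11 to 109 ± 6.46 FPKM (1.48, or −0.83 after Sertoli centring).

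Next, the paralogs of CHD5, BRDT and HMGB4 were compared. Among 8 CHD and BET genes none was called lower, and CHD1, CHD3, CHD9 and BRD3 were called higher, with log2 (foldchange) values of 1.04, 1.22, 1.32 and 1.46. CHD2, CHD4, CHD6 and BRD2 were not called, with 0.07, 0.05, 0.55 and −0.38. With median-of-ratios scaling none of the 8 was called, and with Sertoli centring all 8 stood below 0 and 6 were called lower, from −0.85 for BRD3 to −2.69 for BRD2. CHD4, the most abundant of the CHD paralogs, stood at 80.7 ± 6.05 FPKM in yak against 83.5 ± 4.09 in the hybrids (SD, n = 3 each), where CHD5 had 87.8 ± 4.45 and 1.06 ± 0.030. HMGB2 and the most abundant row of HMGB3 had log2 (foldchange) values of 0.98 and −0.95, short of the threshold. Both stood so near it that small changes moved the calls. HMGB2 was called higher with TPM scaling and without C1 (1.02), C2 (1.06) or Y3 (1.03), while Sertoli centring put it at −1.33. HMGB3 was called lower without C2 (−1.11) or Y2 (−1.06), with a pseudocount of 0.01, with voom, with median-of-ratios scaling (−1.53) and with Sertoli centring. HMGB1 was listed at 0 in 5 libraries and was not tested.

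**Figure D5:**
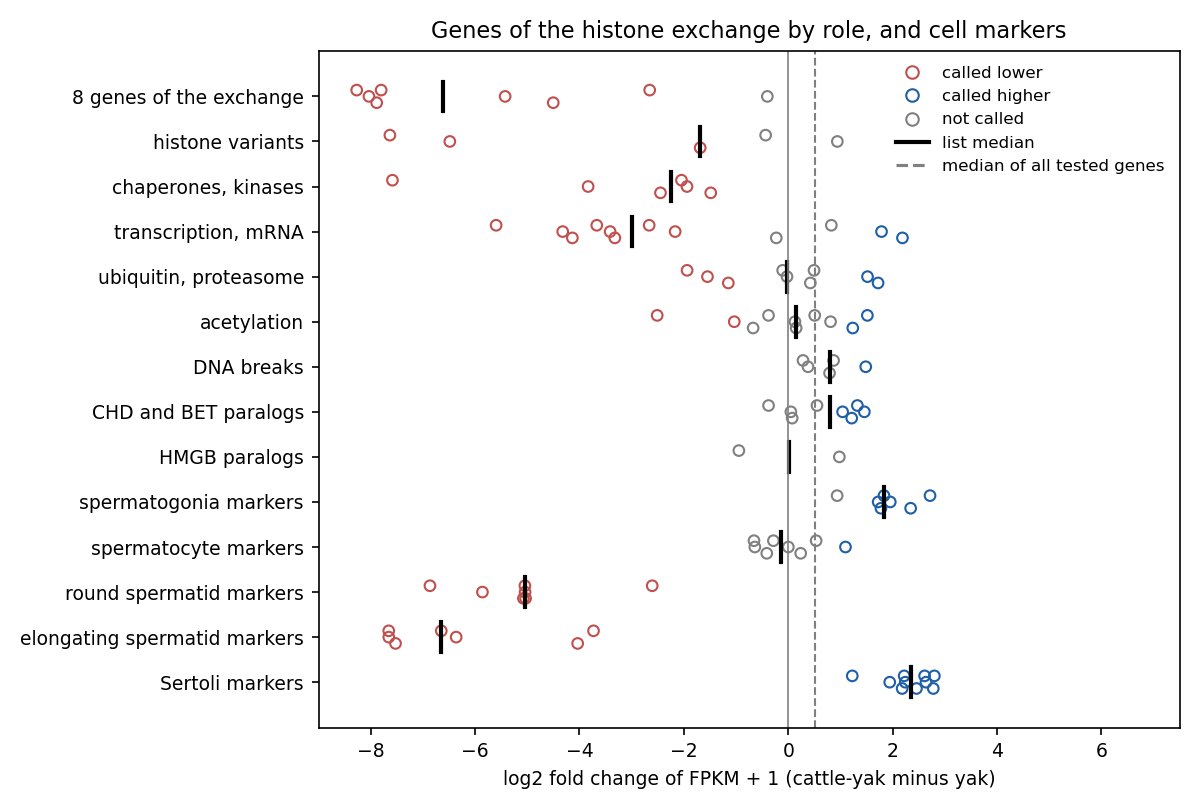
Log2 (foldchange) of FPKM + 1, cattle-yak minus yak, of the tested genes of each list, with 1 point per gene and a bar at the list median. Of the 8 genes, 7 lie within or below the range of the spermatid markers, RNF8 lies at −0.40 within that of the spermatocyte markers, and the paralogs, the DNA break genes and the spermatocyte markers lie around or above 0 on the deposited scale, and below 0 in their medians after Sertoli centring.

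For each gene, the other named gene with the nearest profile was taken over the 6 libraries, as the Euclidean distance of centred log2 (FPKM + 1). GSG1, a germ cell associated gene, was nearest to both TNP1 (distance 0.71) and PRM2 (0.56), PMIS2 to TNP2 (0.48) and ODF1, an outer dense fibre protein of the sperm tail, to HMGB4 (0.36). PMFBP1 was nearest to CHD5 (0.11), ODF4 to PHF7 (0.22), CEP63 to BRDT (0.13) and MLH3, a mismatch repair gene of crossover formation, to RNF8 (0.11). PMFBP1, a protein of the sperm head and tail junction, stood close to CHD5 also in level, with 1.01, 1.10 and 1.01 FPKM in C1, C2 and C3 and 87.9, 78.03 and 86.8 in Y1, Y2 and Y3. Pearson's r of these pairs ranged from 0.988 to 0.99990 over 6 libraries of 2 groups, which is a description, since any pair of genes that differ between the groups correlates.

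The Gene Ontology terms deposited with the genes were compared last. CHD5 carried none. The term for the exchange of chromosomal proteins in spermatogenesis stood on TNP1, TNP2 and RNF8 and on 7 tested genes in all. Of these 6 were called lower, TNP1 and TNP2 among them, beside 20.8% of all tested genes. Spermatid development stood on TNP1, PRM2 and RNF8 among 57 tested genes, of which 35 were lower. Chromatin remodeling stood on TNP1, HMGB4 and BRDT, but of its 61 tested genes 10 were lower and the median log2 (foldchange) was 0.71. The other terms carried by 3 or more of the 8 genes were broader. Lower calls were 131 of 289 for spermatogenesis, 98 of 301 for multicellular organism development, 148 of 958 for DNA binding and 608 of 3740 for nucleus.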

How the data were processed

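The authors made stranded mRNA libraries from testis tissue, sequenced 150 bp paired-end reads, trimmed them with Trimmomatic and aligned both groups to the yak assembly LU_Bosgru_v3.0 with HISAT2, so reads from cattle alleles were also mapped to yak. Per the study's methods, the authors calculated the deposited FPKM values with Cufflinks, from model length and library depth. They stand for whole fragments, so which program gave them is uncertain. Versions were not given in the sources used here.

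The FPKM steps gave whole fragments for 17973 genes, each value within 0.01 fragments of a whole number. Model lengths came from the same steps. The 15042 genes whose FPKM averaged 0.5 or more were tested with limma 3.58.1 in R 4.3.3 (eBayes with a trend, two-sided, pseudocount 1), with Benjamini-Hochberg adjustment over all of them. The authors' count test was not used, since the deposited values are FPKM. Fold changes on this scale understate those of low genes. Exact permutation tests ran over the 10 splits of the animals with scipy 1.17.1. Libraries were grouped by their labels. Replicates were separate animals. The limma p-values set the group difference against the spread between animals, moderated over all tested genes, and the permutation p-values rank the observed split among the 10. The scripts were tested on simulated data.

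The 8 genes and the lists were chosen with earlier results of these data known. Beyond the 8 genes, the text names the called genes with the largest fall and rise of each list, all paralogs and the nearest gene by profile. It also names all spermatocyte markers and the most abundant marker of the other germ cell lists described. Where a symbol stands on several rows, the most abundant is used. Alternatives were other pseudocounts, filters, scalings and variance priors, voom on the recovered fragments, the omission of each animal, and centring on spermatocyte markers, which was added after seeing the data. Sequences of the genes were not used here.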

Additional observations from a re-analysis of the deposited data

How the results depend on the processing

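TNP1, TNP2, PRM2, HMGB4, CHD5, PHF7 and BRDT were called lower under all 18 alternatives, and 7 genes were called with any animal left out. Their falls were largest when the libraries were centred on the Sertoli markers, which moved the median of all genes to −1.80 (−10.58 for TNP1), and little changed when centred on the spermatocyte markers, with −8.25 for TNP1 and −2.64 for BRDT. RNF8 was called under 2 alternatives, at −2.71 with Sertoli centring and −1.05 with voom under median-of-ratios size factors, and its other values kept their side of the threshold. Of the listed genes of the process, Sertoli centring called 49 lower and 0 higher, median-of-ratios scaling called 3 higher, and voom with those factors 5 higher. With an animal left out, 21 to 23 were lower and 10 to 13 higher. Sertoli centring turned the sign of MSL3 (−0.79), HUWE1 (−0.59), PARP1 (−0.83), TAF7L (−0.12), CHD1 (−1.27), CHD2 (−2.24), CHD3 (−1.09), CHD4 (−2.26), CHD6 (−1.76), CHD9 (−0.99), BRD3 (−0.85) and HMGB2 (−1.33). Median-of-ratios scaling turned CHD2 (−0.52), CHD4 (−0.56) and CHD6 (−0.011), as did voom with those factors (−0.54, −0.57 and −0.012). With an animal left out, CHD2 ranged from −0.073 to 0.18 and CHD4 from −0.0061 to 0.10. CHD2 turned without C2 (−0.062) and without Y2 (−0.073), CHD4 without Y3 (−0.0061), and CHD1 left the threshold without Y2 (0.93). Under each scaling these turns follow from its shift of the median, by construction, and for a left-out animal the cause was not tested. No paired analysis was possible because the groups hold different animals and the numbers in their labels differ between the groups (1 to 3 only name them here). Levels of CHD5, TNP2 and, in C3, HMGB4 in the hybrids lay near the pseudocount, so the size of their falls depends on it, and 5 to 89 fragments per library limit the precision of TNP1, TNP2, PRM2, HMGB4 and CHD5 there.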
